A study of Mus musculus with 13 samples.

Results

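The levels of 10 genes that mark macrophages were examined in bulk RNA from mouse pancreas: Adgre1, Csf1r, Cx3cr1, Cd68, Cd14, Lyz2, Mrc1, C1qa, C1qb and C1qc. They were chosen by name, with earlier results of these data known, and looked up by Entrez ID. All 10 were found among the 23366 genes of the expression table. Macrophages are phagocytes of the innate immune system that reside in nearly every organ, where they clear dying cells, present antigen and release complement components and cytokines. In the pancreas they lie in the stroma between the exocrine acini and within the islets, and monocytes from the blood can add to them. Growth and survival of the lineage depend on the receptor encoded by Csf1r, and the transcription factor PU.1 is needed for the expression of many of its genes.

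RNA was sequenced from the pancreas of 13 female mice, 1 library per mouse. The 4 young mice were 13 weeks old and the 5 old mice 55 weeks. The 4 old-OSKM mice had 1 week of OSKM activation by doxycycline in the drinking water and 2 weeks of recovery, and are given as 58 weeks old in the labels. All 13 animals, the untreated ones included, carried the i4F-B transgene, which encodes Oct4, Sox2, Klf4 and c-Myc, can be induced by doxycycline in most tissues and sits in the Pparg gene. The study's methods give no doxycycline to the young and old mice, so the drug and the 4 factors cannot be told apart here. In a separate young mouse stained soon after an injection of doxycycline, the study found SOX2 widely in acinar cells and not in most endocrine cells. The sample numbers form a run from 609 to 621, with all 4 old-OSKM, 4 old and 2 young mice, and a run from 641 to 643, with 1 old and 2 young mice.

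Values are log2 RPKM (reads scaled to transcript length and to the mapped total), quantile normalized by the authors. The 10 acinar enzymes and regulators of a marker list made up 17.1% to 18.0% of the summed RPKM of each mouse, as fits exocrine pancreas. Read totals were not used here, and the counting error behind each value is unknown. Replicate error is therefore the spread between mice of a group. In bulk tissue, fewer macrophages and less RNA per macrophage cannot be told apart. Among the 4 old-OSKM mice, mice 1 and 4 stood apart from the other 11 animals over the whole table, with a mean z-score over all genes of -0.352 and -0.568, against -0.0896 to 0.217 in the others. The counts over genes and lists that compare old-OSKM with other mice, and the genes called there, are therefore also given without both, a choice made after seeing the data.

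Of the 10 genes, C1qc had the smallest raw p between groups in limma, as described below. C1qb is its neighbour on chromosome 4, with closely similar levels, so the DNA before both start sites is shown. Mrc1 is shown as the gene with the most matches to the motif searched. RefSeq promoter sequences of assembly GRCm38.p6 held entries for 6 of the 10 genes. The 250 bases before the start, with an exception for C1qc given below, are written 5′ to 3′ on the strand of the gene. Capitals mark GAGGAA, a core sequence bound by PU.1, or TTCCTC, the same 6 letters on the opposite strand.
C1qb, chr4:136886201-136886450, minus strand: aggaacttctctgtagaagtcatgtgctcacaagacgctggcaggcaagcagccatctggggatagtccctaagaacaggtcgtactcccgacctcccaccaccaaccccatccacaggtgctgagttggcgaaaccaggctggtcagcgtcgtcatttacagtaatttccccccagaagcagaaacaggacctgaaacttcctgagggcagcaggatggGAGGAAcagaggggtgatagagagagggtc
C1qc, chr4:136892915-136893164, minus strand: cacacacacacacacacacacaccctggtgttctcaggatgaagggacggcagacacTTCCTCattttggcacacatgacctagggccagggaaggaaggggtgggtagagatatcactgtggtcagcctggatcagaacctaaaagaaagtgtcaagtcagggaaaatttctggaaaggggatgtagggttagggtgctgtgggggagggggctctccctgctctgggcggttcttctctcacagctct
Mrc1, chr2:14229164-14229413, plus strand: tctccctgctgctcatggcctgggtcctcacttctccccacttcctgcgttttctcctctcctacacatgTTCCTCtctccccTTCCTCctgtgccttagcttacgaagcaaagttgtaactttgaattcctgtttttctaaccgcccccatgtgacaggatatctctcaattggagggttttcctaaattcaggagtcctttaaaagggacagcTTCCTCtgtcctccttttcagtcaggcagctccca
C1qb held 1 match, 30 to 25 bases before the start. C1qc held 1 match on the opposite strand, 193 to 188 bases back as counted from the last base of its window. That window runs to 136892915, past the annotated gene start at 136892936, so its last bases lie inside the gene. Mrc1 held 3, all on the opposite strand, at 180 to 175, 167 to 162 and 35 to 30 bases before the start. Cd68 held 1 match, 225 to 220 bases before its start, whereas the windows of Lyz2 and Cx3cr1 held none. Of all 32851 promoter windows of this length, 23.3% held at least 1 match on either strand, so 4 of 6 macrophage genes is a description of letters and no more. The AP-1 motif TGANTCA, present in 6.75% of the windows, was found before Cd68 and not before the other 5.

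Lyz2, encoding the lysozyme of macrophages and other myeloid cells, was the most abundant of the 10, at 2.56 ± 0.68 log2 RPKM (SD, n = 13), above 96.0% of all genes in the table. The C1q chains followed, C1qa at 1.54 ± 0.57, C1qb at 1.29 ± 0.66 and C1qc at 1.21 ± 0.65. Next came Csf1r at 0.87 ± 0.43 and Mrc1 at 0.66 ± 0.45. Adgre1 at 0.09 ± 0.55 and Cd68 at 0.04 ± 0.57 were next, and Cd14 at -0.40 ± 0.50 and Cx3cr1 at -0.82 ± 0.48 were lowest.

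The order was nearly the same in every mouse. Lyz2 exceeded C1qa in 13 of 13 mice, by 1.03 ± 0.30 on the log2 scale, and Csf1r exceeded Mrc1 in 13 of 13, by 0.20 ± 0.13. The neighbours that did not separate beyond their spread were C1qb and C1qc, which differed by 0.09 ± 0.19 with C1qb higher in 9 of 13 mice, and Adgre1 and Cd68, which differed by 0.05 ± 0.29 with Adgre1 higher in 7 of 13. C1qa over C1qb (0.24 ± 0.24), Cd68 over Cd14 (0.44 ± 0.54) and Cd14 over Cx3cr1 (0.42 ± 0.45) were also within about 1 SD. Lyz2 has a close paralog, Lyz1, with which reads may be shared, and Lyz1 was measured at -1.92 to 0.48 log2 RPKM. By RefSeq gene positions on GRCm38, C1qb (chr4:136880126-136886200), C1qc (chr4:136889801-136892936) and C1qa (chr4:136895916-136898844) lie in a row on the minus strand. Lyz2 is at chr10:117277541-117282272, minus strand, and Adgre1 at chr17:57358581-57483529, plus strand. Mrc1 overlaps the microRNA gene Mir511 and Csf1r overlaps Mir6983, and the library kit does not keep strand.

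**Figure D1:**
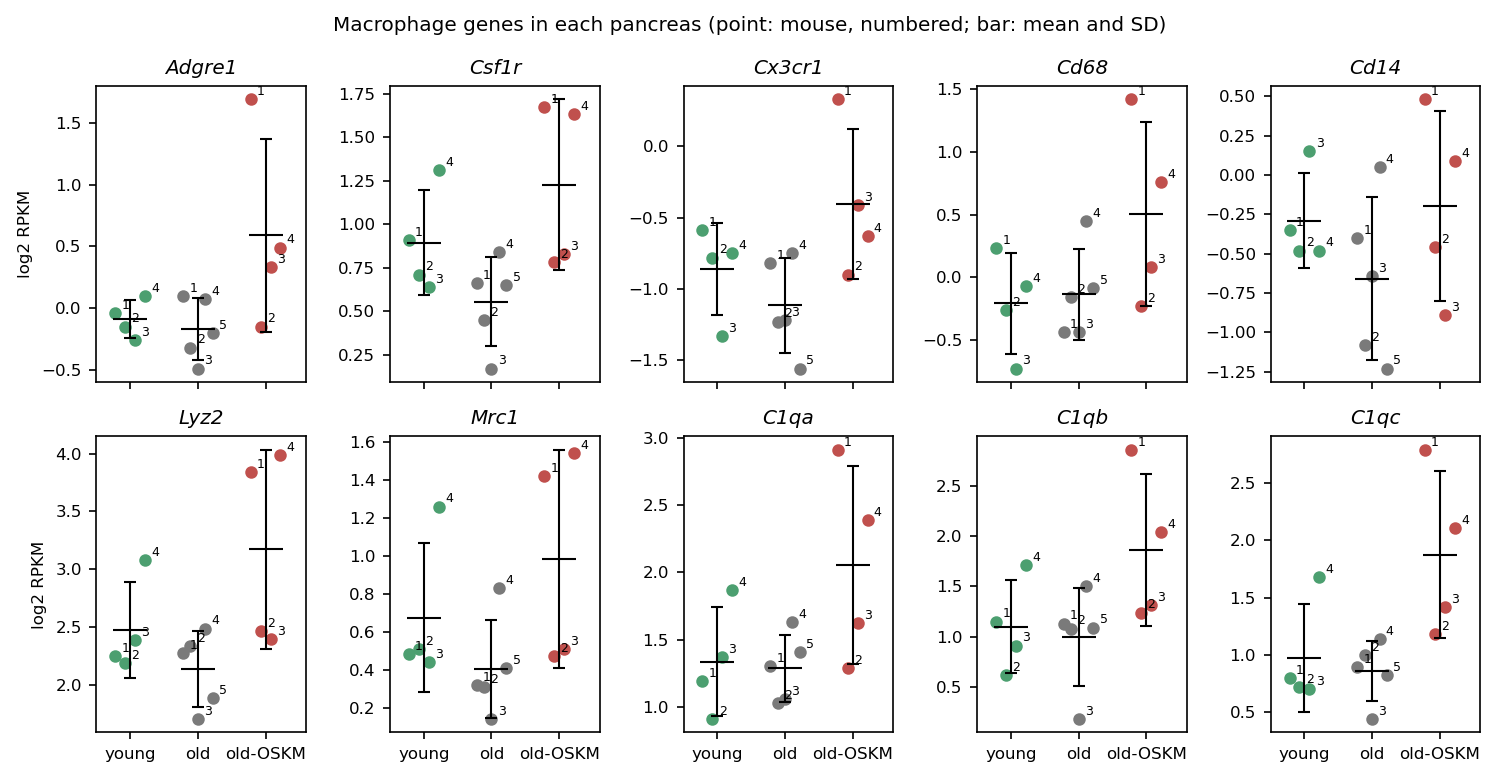
Level of each macrophage gene (log2 RPKM, vertical axis with its own scale in each panel) in the young (n = 4), old (n = 5) and old-OSKM (n = 4) pancreas. Each numbered point is a mouse and the bars give the mean and SD. Old-OSKM mice 1 and 4 are the 2 highest of their group in 9 of the 10 panels, while in Cx3cr1 mouse 3 lies above mouse 4.

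The first comparison asked whether these genes differ between young and old pancreas without OSKM. None of the 10 was called by the study's rule (raw p under 0.01 together with more than a 1.5-fold difference), which 0.886% of all genes met in limma. None had a raw p under 0.05 (5.52% of all genes). The adjusted p was 1.0 for each of the 10. Differences (old minus young) ran from -0.37 in Cd14 to 0.07 in Cd68, with a median of -0.19 beside 0.001 for all genes. They were below 0 in 9 of 10 genes, as in 45.6% of the table.

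The intervals set what such a comparison can show with 4 and 5 mice. Csf1r, the receptor for CSF1 and IL-34, had values of 0.91, 0.71, 0.64 and 1.31 log2 RPKM in the young and 0.66, 0.45, 0.17, 0.84 and 0.65 in the old mice. The groups overlap, and the difference of -0.34 had a 95% interval from -0.83 to 0.15. Cd68, a lysosomal membrane glycoprotein used as a macrophage marker, differed by 0.07, with an interval from -0.64 to 0.78. C1qa differed by -0.05, with an interval from -0.72 to 0.62. Changes with age that lie within these intervals were not detectable here. In the same comparison 4 genes of the cell type lists were called. Jchain, of antibody-secreting cells, was higher in old mice by 2.35 (SE 0.71, adjusted p = 0.55), Col1a1 of fibroblasts fell by 0.93 (SE 0.26, adjusted p = 0.47) and Col3a1 fell by 1.04 (SE 0.30, adjusted p = 0.51). The dendritic cell factor Zbtb46 was also called, higher by 0.63 (adjusted p = 0.22). Without young mouse 4 none of these 4 was called, at 2.18, -0.71, -0.77 and 0.49, and leaving out each mouse in turn ended the call of Jchain in 5 and of Col3a1 in 4 of 13 fits.

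The second comparison asked what OSKM activation and recovery left in old pancreas. All 10 macrophage genes had higher mean levels in old-OSKM than in old mice, against 36.9% of all genes. The difference was 1.03 in Lyz2 and 1.02 in C1qc at one end and 0.46 in Cd14 at the other, with a median of 0.74 (a fold of 1.66), beside -0.039 for all genes. A raw p under 0.05 was reached by 8 of the 10, all higher in old-OSKM, against 3.98% of all genes with that direction. A fold over 1.5 was reached by 8 of the 10, against 3.42%. Only C1qc passed the called rule (0.753% of all genes, 0.582% in the higher direction), and none of the 10 passed an adjusted p of 0.05 (they ran from 0.55 to 0.61), as 1 gene of the table (0.00428%) did. Without old-OSKM mice 1 and 4, none of the 10 was called or had a raw p under 0.05, 9 of 10 differences were above 0 (59.2% of all genes in that fit) and the median was 0.25. Within the first run of sample numbers, which holds 4 old and 4 old-OSKM mice, the median was 0.72, none was called and 5 of 10 had a raw p under 0.05. With the mean z-score of all genes as a covariate the median was 0.42, none was called and 2 of 10 had a raw p under 0.05. With only the 2 compared groups in the limma fit, none was called and 6 of 10 had a raw p under 0.05.

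**Figure D2:**
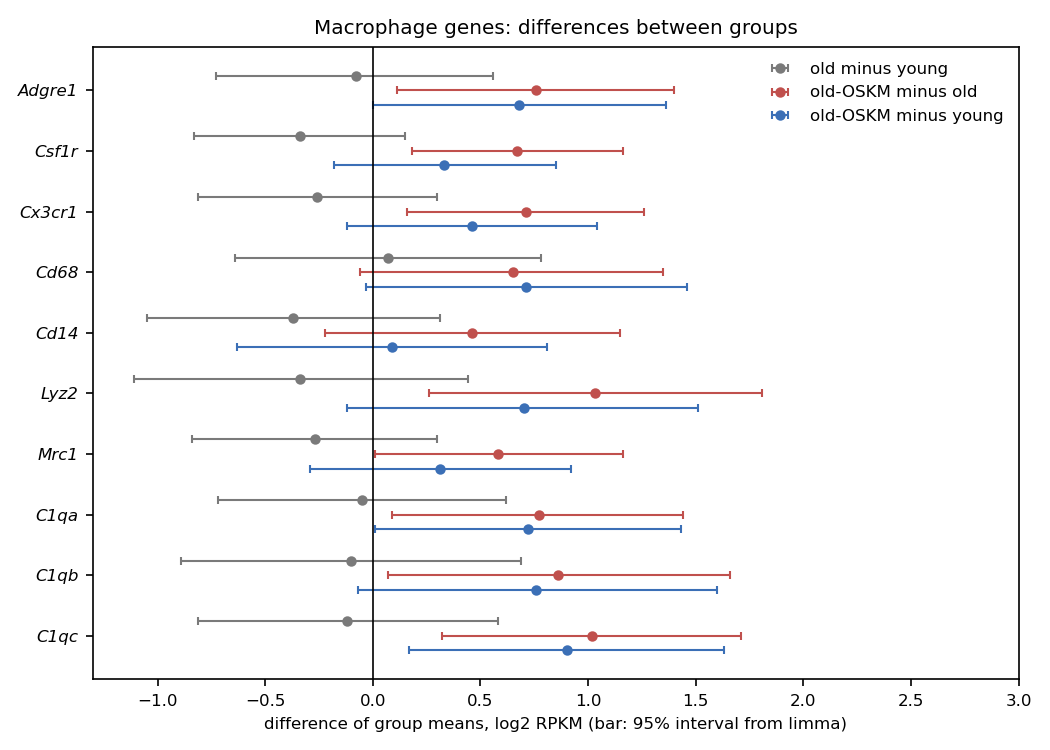
Differences of group means (log2 RPKM, horizontal axis) for each macrophage gene (vertical axis), with 95% intervals from limma over 13 mice. The old minus young intervals (grey) all include 0, and 8 of the 10 old-OSKM minus old intervals (red) lie above 0, those of Cd68 and Cd14 excepted.

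The C1q chains together form the recognition subunit of the classical complement pathway, made in tissues largely by macrophages. C1qc was measured at 0.89, 1.00, 0.44, 1.14 and 0.82 log2 RPKM in the 5 old mice and at 2.79, 1.18, 1.42 and 2.11 in the 4 old-OSKM mice. Every old-OSKM mouse lay above every old mouse, which happened in 1.73% of all genes in either direction, although the lowest old-OSKM mouse exceeded the highest old mouse only narrowly. C1qc rose 2.02-fold (log2 difference 1.02, SE 0.32, adjusted p = 0.55). Leaving out each of the 13 mice in turn ended this call in 9 fits, with a difference of 0.71 without old-OSKM mouse 1, 0.94 without old-OSKM mouse 4, 0.91 without old mouse 3 and, with both old-OSKM mice 1 and 4 left out, 0.44. C1qb was 1.13, 1.08, 0.18, 1.5 and 1.09 in old and 2.86, 1.24, 1.31 and 2.04 in old-OSKM mice. Old-OSKM mice 2 and 3 were within the old range, and the difference of 0.86 had an SE of 0.36 (95% interval 0.07 to 1.66). C1qa was 1.30, 1.03, 1.06, 1.63 and 1.41 in old and 2.91, 1.29, 1.62 and 2.39 in old-OSKM mice. Its difference was 0.77 (SE 0.31, 95% interval 0.09 to 1.44), again with mice 2 and 3 inside the old range.

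The 3 chains moved together, with gaps between them that varied less than their levels. C1qa exceeded C1qc in 13 of 13 mice, by 0.33 ± 0.21 (from 0.03 to 0.67), and C1qb in 12 of 13. The largest gap was 0.87, between C1qa and C1qb, in a mouse whose C1qb was the lowest of all 13 at 0.18. Across mice C1qa ranged from 0.91 to 2.91 and C1qc from 0.44 to 2.79.

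**Figure D3:**
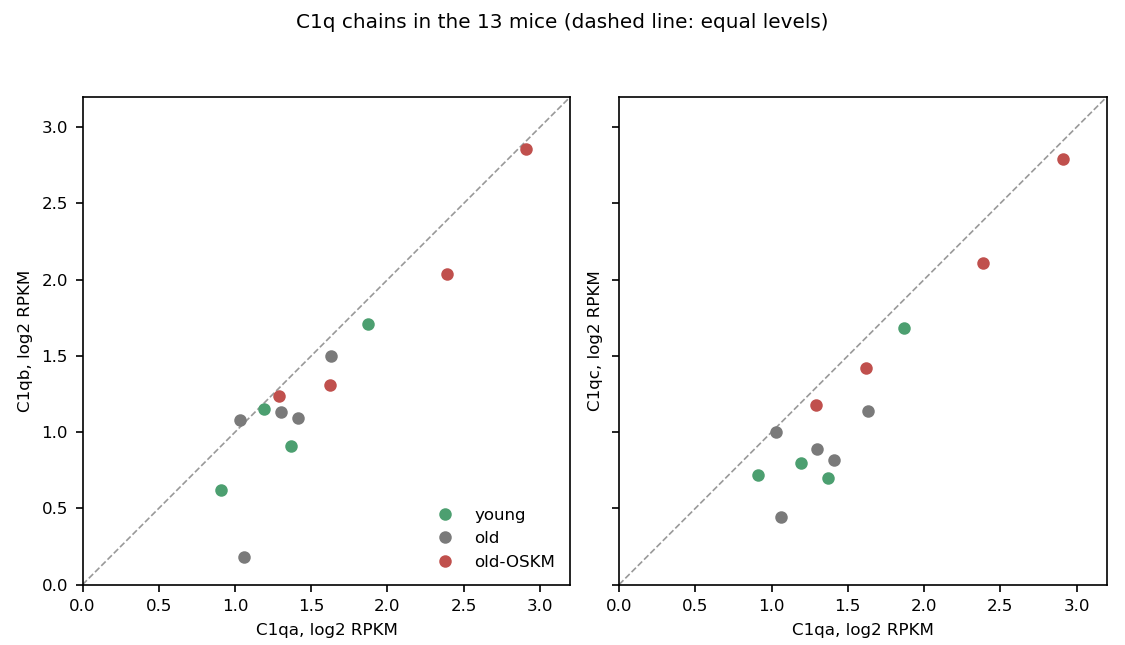
C1qb (left) and C1qc (right) against C1qa, all in log2 RPKM, 1 point per mouse, coloured by group, with the dashed line marking equal levels. The points broadly follow the line and lie mostly below it, and the 2 highest are old-OSKM mice, with C1qa at 2.91 and 2.39.

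Of the identity receptors, Adgre1 (F4/80, an adhesion G protein-coupled receptor that marks mouse tissue macrophages) was 0.10, -0.32, -0.49, 0.07 and -0.20 in old and 1.69, -0.15, 0.33 and 0.49 in old-OSKM mice. A single old-OSKM mouse, mouse 2, was inside the old range. The difference was 0.76 (SE 0.29, 95% interval 0.11 to 1.40), and 0.39 without mouse 1. Csf1r was 0.66, 0.45, 0.17, 0.84 and 0.65 in old and 1.67, 0.78, 0.83 and 1.63 in old-OSKM mice. Mice 2 and 3 reached the upper end of the old range without passing it, and the difference was 0.67 (SE 0.22, 95% interval 0.18 to 1.16). Cx3cr1, the fractalkine receptor of monocytes and tissue macrophages, was -0.82, -1.23, -1.22, -0.75 and -1.56 in old and 0.33, -0.90, -0.41 and -0.63 in old-OSKM mice. Here 3 of 4 old-OSKM mice exceeded every old mouse, and the difference was 0.71 (SE 0.25, 95% interval 0.16 to 1.26).

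Of the genes for uptake, lysosome and recognition, Lyz2 was 2.28, 2.34, 1.71, 2.49 and 1.89 in old and 3.84, 2.47, 2.40 and 3.99 in old-OSKM mice. Mice 1 and 4 were far above the old range, and mice 2 and 3 within it. The difference was 1.03 (SE 0.35, 95% interval 0.26 to 1.81), a fold of 2.05. Mrc1, the mannose receptor of tissue-resident and alternatively activated macrophages, was 0.32, 0.31, 0.14, 0.83 and 0.41 in old and 1.42, 0.47, 0.51 and 1.54 in old-OSKM mice. The same pair of mice carried its difference of 0.58 (SE 0.26, 95% interval 0.01 to 1.16).

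Cd68 and Cd14 were the pair with a raw p above 0.05. Cd68 was -0.44, -0.16, -0.44, 0.45 and -0.09 in old and 1.42, -0.23, 0.08 and 0.76 in old-OSKM mice, a difference of 0.65 (95% interval -0.06 to 1.35). Cd14, the co-receptor that passes lipopolysaccharide to TLR4, was -0.40, -1.08, -0.64, 0.05 and -1.23 in old and 0.48, -0.46, -0.89 and 0.09 in old-OSKM mice. Its difference of 0.46 had an interval from -0.22 to 1.15 and, without mice 1 and 4, turned to -0.02. Cd14 also had the widest spread in the old group, at an SD of 0.52.

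Mouse by mouse, the 4 old-OSKM animals differed widely. Mouse 1 was above all 5 old mice in 10 of 10 genes (16.8% of all genes), and the median of the 10 stood 1.59 above the old mean, a fold of 3.01. Mouse 4 was above all old mice in 10 of 10 (24.2% of all genes), with a median of 1.06, a fold of 2.08. Mouse 2 was above them in 1 of 10, C1qc (14.5% of all genes), with a median of 0.21, and mouse 3 in 3 of 10, Adgre1, Cx3cr1 and C1qc (34.8% of all genes), with a median of 0.29. The remaining 9 genes of mouse 2 and 7 genes of mouse 3 lay within the old range. The shares of mice 2 and 3 were thus close to those of the whole table.

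Mice 1 and 4 also differed from each other. Adgre1 was 1.86 above the old mean in mouse 1 and 0.66 in mouse 4, and Cx3cr1 was 1.45 and 0.49. Lyz2 was 1.70 above in mouse 1 and 1.85 in mouse 4, Mrc1 was 1.01 and 1.14, and Csf1r was 1.12 and 1.07. The C1q chains stood 1.63 to 1.93 above in mouse 1 and 1.04 to 1.25 in mouse 4. Mouse 1 had the highest value of all 13 animals in 8 of the 10 genes, and mouse 4 in the other two, Lyz2 and Mrc1.

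**Figure D4:**
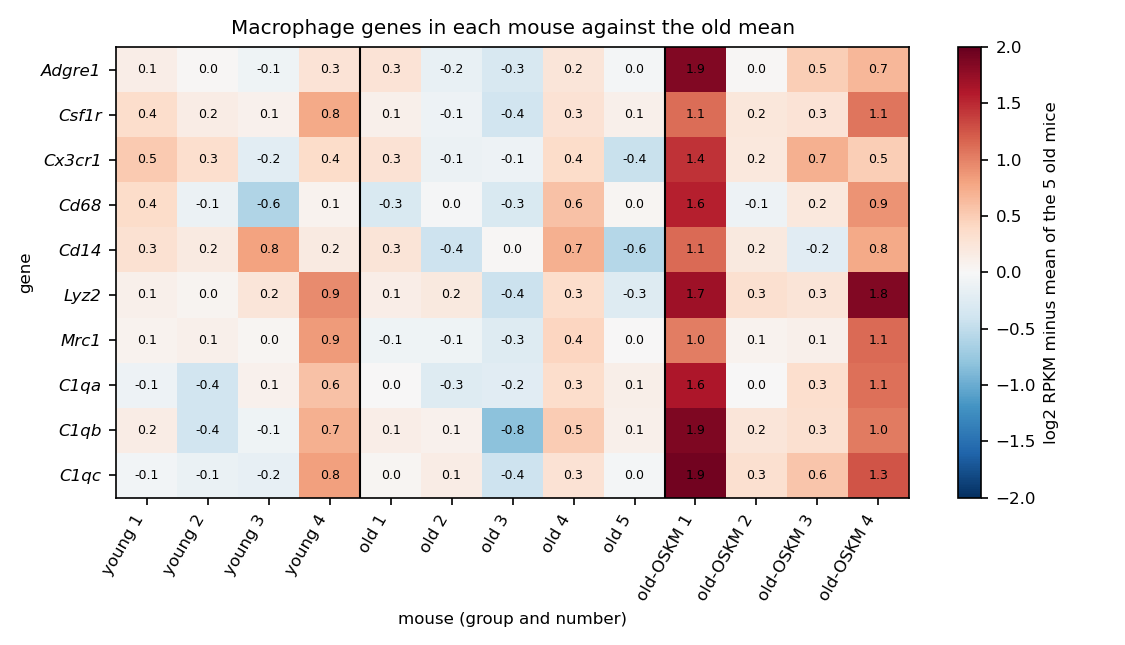
Level of each macrophage gene (rows) in each mouse (columns, by group and number) minus the mean of the 5 old mice, in log2 RPKM, red above and blue below. Old-OSKM mouse 1 is red throughout (1.01 to 1.93) and mouse 4 likewise (0.49 to 1.85), whereas mice 2 and 3 run from -0.23 to 0.70.

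The third comparison set the old-OSKM mice against the young. It shares the old-OSKM mice with the second comparison and is not independent of it. None of the 10 genes was called (0.625% of all genes were), 2 had a raw p under 0.05 in the higher direction (2.91% of all genes), and 10 of 10 differences were above 0 (38.7%). With only these 2 groups in the limma fit, 0 of 10 had a raw p under 0.05. C1qc was 0.80, 0.72, 0.70 and 1.68 in young mice and differed from old-OSKM by 0.90 (SE 0.33, adjusted p = 0.71). C1qa was 1.19, 0.91, 1.37 and 1.87 in young mice and differed by 0.72 (SE 0.32, adjusted p = 0.71). Both pairs of groups overlap, and in both genes young mouse 4 was above old-OSKM mice 2 and 3. In C1qa young mouse 3, at 1.37, was also above old-OSKM mouse 2, at 1.29. The median difference of the 10 was 0.69, and 0.13 without old-OSKM mice 1 and 4. Cd14 differed by 0.09, with an interval from -0.63 to 0.81. Csf1r and Mrc1 had differences of 0.33 and 0.31, both under 1.5-fold.

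The untreated mice varied among themselves as well. Young mouse 4 was the highest of its group in 7 of 10 genes and old mouse 4 in 9 of 10, while old mouse 3 was the lowest of its group in 6 of 10. The mean of the 10 genes ran from 0.40 to 0.97 in young, from 0.09 to 0.82 in old and from 0.57 to 1.94 in old-OSKM mice. Over the 13 mice the 10 genes moved together, with Pearson r of 0.50 to 0.96 over the 45 pairs and a median of 0.84. With group means subtracted the median was 0.80, and in the 9 young and old mice alone it was 0.62, with a range from -0.04 to 0.94. Cd14 was the loosest, with a median r of 0.60 to the other nine, and C1qc the tightest, with 0.91. These are descriptions over mice that share a normalization and the same variation in tissue make-up.

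Beyond these 10, 94 genes of macrophage biology in 8 lists were read in the same fit. These lists too were chosen with earlier results of these data known. Between old-OSKM and old mice, 90 of 94 were higher (36.9% of all genes), 27 had a raw p under 0.05, all of them higher (3.98% of all genes), and 2 were called (0.753%). Their median difference was 0.53. Between old and young mice 42 of 94 were above 0, with a median of -0.05, none was called in limma and 1 in each direction had a raw p under 0.05. Without old-OSKM mice 1 and 4, the excess over old mice shrank to 70 of 94 genes above 0 (59.2% of all genes), with a median of 0.10 and no call. Against young mice 82 of 94 were above 0 (38.7% of all genes), 15 had a raw p under 0.05 in the higher direction (2.91%), 2 were called (0.625%) and the median was 0.46. Without old-OSKM mice 1 and 4, 60 of 94 were above 0 against young mice, a share of 63.8% beside 62.6% of all genes, 2 had a raw p under 0.05 in the higher direction and the median was 0.07. The counts by list that follow are for old-OSKM minus old unless said otherwise, and share these backgrounds.

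Among ligands and receptor partners, 8 of 10 genes were above 0, both with old-OSKM mice 1 and 4 and without them (median 0.26 and 0.12). Csf1, the ligand of the Csf1r product, was called. It was 0.20, 0.30, 0.17, 0.14 and 0.33 in old and 1.01, 0.65, 0.42 and 1.21 in old-OSKM mice, with no overlap, and rose by 0.59 (SE 0.16, adjusted p = 0.55). Its fold was 1.51, just past the rule, and the call was lost in 5 of 13 fits that left out 1 mouse, with differences of 0.53 without old-OSKM mouse 1, 0.46 without old-OSKM mouse 4 and 0.57 to 0.58 without old mouse 1, 3 or 4. With both old-OSKM mice left out the difference was 0.31, and with a pseudocount of 0.1 it was 0.55, without a call in either. Tlr4, the lipopolysaccharide receptor that acts with CD14, differed by 0.44 (95% interval -0.03 to 0.92).

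The C1 complex and C1q partners had 8 of 8 genes above 0 and 6 of 8 at a raw p under 0.05, with a median of 0.68. The same counts and median were 7 of 8, 0 and 0.18 when old-OSKM mice 1 and 4 were left out. C2, which is cleaved by activated C1s, was -0.55, -0.73, -1.09, -0.15 and -0.43 in old and 0.68, -0.44, -0.19 and 0.82 in old-OSKM mice. The difference was 0.81 (SE 0.28, 95% interval 0.20 to 1.42), with mice 2 and 3 inside the old range. C1ra, a serine protease of C1, differed by 0.69 (SE 0.25, 95% interval 0.14 to 1.24).

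General myeloid markers were above 0 in 23 of 23 genes, with 8 at a raw p under 0.05 and a median of 0.63. They were 20 of 23, 0 and 0.10 without old-OSKM mice 1 and 4. Itgam, the CD11b integrin chain, was -0.68, -1.26, -1.54, -0.05 and -0.76 in old and 0.74, -0.39, -0.21 and 0.18 in old-OSKM mice, a difference of 0.94 (SE 0.31, 95% interval 0.26 to 1.62). Fcgr2b, the inhibitory Fc receptor, differed by 0.87 between old-OSKM and young mice (95% interval 0.24 to 1.5).

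The resident and scavenger list held 12 of 13 genes above 0 against old mice, but only 1 at a raw p under 0.05, and 8 of 13 without old-OSKM mice 1 and 4. The gene at a raw p under 0.05 was Folr2, a folate receptor of resident macrophages, with a difference of 0.80 (95% interval 0.05 to 1.56). Marco, a scavenger receptor, was called against young mice (1.52, SE 0.48, 95% interval 0.47 to 2.57) at a low level, -2.08 ± 1.14 in old-OSKM and -3.60 ± 0.35 in young mice, and its old-OSKM values ran from -3.77 to -1.27. That call was lost in 10 of the 13 fits that left out 1 mouse, down to 1.25 without old-OSKM mouse 1, and with both old-OSKM mice 1 and 4 left out the difference was 0.95. In the alternative activation list, 8 of 8 genes were above 0 and 2 had a raw p under 0.05, against 6 of 8 and 0 without old-OSKM mice 1 and 4. Retnla, a secreted product of alternatively activated macrophages, was 1.75, 1.13, 1.00 and 1.75 in old-OSKM mice and differed by 1.14 (SE 0.38, 95% interval 0.32 to 1.97). Clec10a, a lectin of macrophages and dendritic cells, differed by 0.68 (95% interval 0.02 to 1.34).

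Of monocyte and inflammatory genes, 11 of 11 were above 0 and 4 had a raw p under 0.05, against 9 of 11 and 1 without old-OSKM mice 1 and 4. Tnf, the inflammatory cytokine, was called, at a log2 difference of 1.28 (SE 0.26, adjusted p = 0.55). Its values were very low, between -3.59 and -3.54 in the 5 old mice and -1.78, -2.85, -2.34 and -2.14 in the old-OSKM mice. Such nearly constant low values can stand for few or no reads, so the size of that difference is uncertain. Without old-OSKM mice 1 and 4 it was 0.97 and not called. Ly6c2, of circulating monocytes, differed by 0.76 (SE 0.26, 95% interval 0.20 to 1.32).

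In the lipid and lysosome list, 10 of 11 genes were above 0 with a median of only 0.14, and 2 had a raw p under 0.05. These values were 7 of 11, 0.02 and 1 without old-OSKM mice 1 and 4. Apoe, the apolipoprotein secreted by macrophages among other cells, was 4.20, 3.43, 3.37 and 4.91 in old-OSKM mice, 0.82 above the old mean (SE 0.29, 95% interval 0.18 to 1.47). Gpnmb, of lysosome-rich macrophages, differed from young mice by 1.39 (95% interval 0.38 to 2.39). Of the myeloid transcription factors, 10 of 10 were above 0, with 3 at a raw p under 0.05 and a median of 0.34. With old-OSKM mice 1 and 4 left out these became 5 of 10, 0 and -0.02. Maf differed by 0.65 from old mice (95% interval 0.07 to 1.23), and Runx1, which also acts in other blood lineages, was called against young mice (0.83, SE 0.18, adjusted p = 0.39). The Runx1 difference was 0.56 and not called without old-OSKM mice 1 and 4.

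Markers of other cells moved with these genes. Summed RPKM of the 6 genes of all leukocytes was 4.01 to 6.28 in old mice and 18.0, 4.08, 5.66 and 7.38 in old-OSKM mice 1 to 4. The T cell sum was 1.09 to 2.22 in old mice and 6.70, 1.2, 1.49 and 2.03 in the old-OSKM mice. The B and plasma cell sum was 2.88 to 8.73 in old mice and 14.5, 4.44, 3.92 and 7.07 in the old-OSKM mice. Mouse 1 was thus high for lymphocytes as well as for macrophages, and mouse 4 was within the old range for both lymphocyte sums. Ptprc (CD45, on all leukocytes) was 1.83, -0.26, -0.33 and 0.78 in old-OSKM mice, which put the mean 0.55 above that of old mice (95% interval -0.32 to 1.43). Relative to the leukocyte list, the mean of the 10 macrophage genes was higher by 1.22 ± 0.26 in young (n = 4), 0.85 ± 0.21 in old (n = 5) and 0.98 ± 0.36 in old-OSKM mice (n = 4). By mouse it was 0.51, 1.19, 0.92 and 1.31 in old-OSKM mice 1 to 4, so it was lowest in mouse 1, where all leukocyte genes were high.

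Stroma and fat showed another division. Summed fibroblast genes were 20.1 to 26.0 in old mice and 40.9, 28.7, 26.2 and 72.8 in old-OSKM mice 1 to 4. The endothelial sum was 12.8 to 15.0 in old mice and 15.6, 14.0, 14.4 and 30.0 in old-OSKM mice. The adipocyte sum was 2.89 to 5.26 in old mice and 10.7, 3.38, 3.34 and 13.4 in old-OSKM mice. Against old mice, mouse 4 was therefore high in fibroblast, endothelial and adipocyte genes, and mouse 1 in adipocyte and, less far, fibroblast genes. For fibroblast genes mice 2 and 3 were also above the old range, though narrowly. In young mice these sums were 26.9 to 53.8 for fibroblast, 13.9 to 23.2 for endothelial and 3.29 to 8.32 for adipocyte genes. The fibroblast sums of mice 1 and 2 lay within the young range. The adipocyte lipid droplet gene Plin1 was called between old-OSKM and old mice (1.53, SE 0.47, 95% interval 0.50 to 2.55), as were the collagens Col1a1 (0.88, 95% interval 0.31 to 1.44) and Col1a2 (0.89, 95% interval 0.27 to 1.5). Without old-OSKM mice 1 and 4 these 3 differences were 0.60, 0.44 and 0.40, and none was called. The islet sum was 166 to 380 in old mice and 77.2, 159, 113 and 488 in old-OSKM mice. Mast cell and dendritic cell genes each had 1 called gene in this comparison, Mcpt4 at 0.72 (95% interval 0.24 to 1.2) and Xcr1 at 0.94 (95% interval 0.30 to 1.58). Leaving out each mouse in turn ended these calls in 6 of 13 fits for Plin1, 5 for Col1a1, 9 for Col1a2, 5 for Mcpt4 and 7 for Xcr1. Without both old-OSKM mice 1 and 4, Mcpt4 at 0.83 and Xcr1 at 0.79 were not called either. Plin1, Xcr1 and Mcpt4 were at low levels in old mice, with means of -3.26, -3.21 and -2.56, and their calls ended with a pseudocount of 0.1, at 1.03, 0.56 and 0.48, so the size of these differences is uncertain. Against young mice, Cd79b, Ms4a1, Jchain, Pou2af1, Cd3g and Mcpt4 were called, all higher, the first 4 being genes of B and plasma cells and Cd3g of T cells. The calls of Jchain and Mcpt4 held in 13 of 13 such fits, while that of Cd3g was lost in 10, that of Ms4a1 in 7, that of Pou2af1 in 5 and that of Cd79b in 3. Without both old-OSKM mice 1 and 4, Mcpt4 at 1.36 was called, and Jchain at 2.38, Ms4a1 at 1.5, Cd79b at 1.23, Cd3g at 1.01 and Pou2af1 at 0.91 were not. With a pseudocount of 0.1, Jchain at 2.69, Cd79b at 1.42 and Mcpt4 at 0.81 stayed called. Cd3g at 1.2, Ms4a1 at 1.19 and Pou2af1 at 1.22 did not. With a pseudocount of 1 Jchain at 1.59 was still called, and Cd79b at 0.51 and Mcpt4 at 0.2 were not. Young means of Cd3g, Ms4a1, Pou2af1, Mcpt4 and Cd79b were low, at -3.11, -3.08, -3.23, -3.09 and -2.58. The SD of Mcpt4 in young mice was only 0.03. The size of these differences is therefore uncertain too.

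Over the 13 mice the mean of the 10 macrophage genes had an r of 0.93 with the adipocyte list, 0.87 with all leukocytes, 0.83 with dendritic cells, 0.82 with the lymph node list, 0.75 with T cells and 0.75 with fibroblasts. It was 0.61 with endothelial cells, 0.52 with B and plasma cells, 0.15 with neutrophils and -0.49 with acinar cells. The acinar list hardly varied, from -0.08 to 0.07 around the old mean over all mice, so its r rests on very small differences. Old-OSKM mice 1 and 4 are at the ends of several of these lists, and the mice share a normalization. The part of leukocytes, fat or stroma in the macrophage gene differences was not tested.

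**Figure D5:**
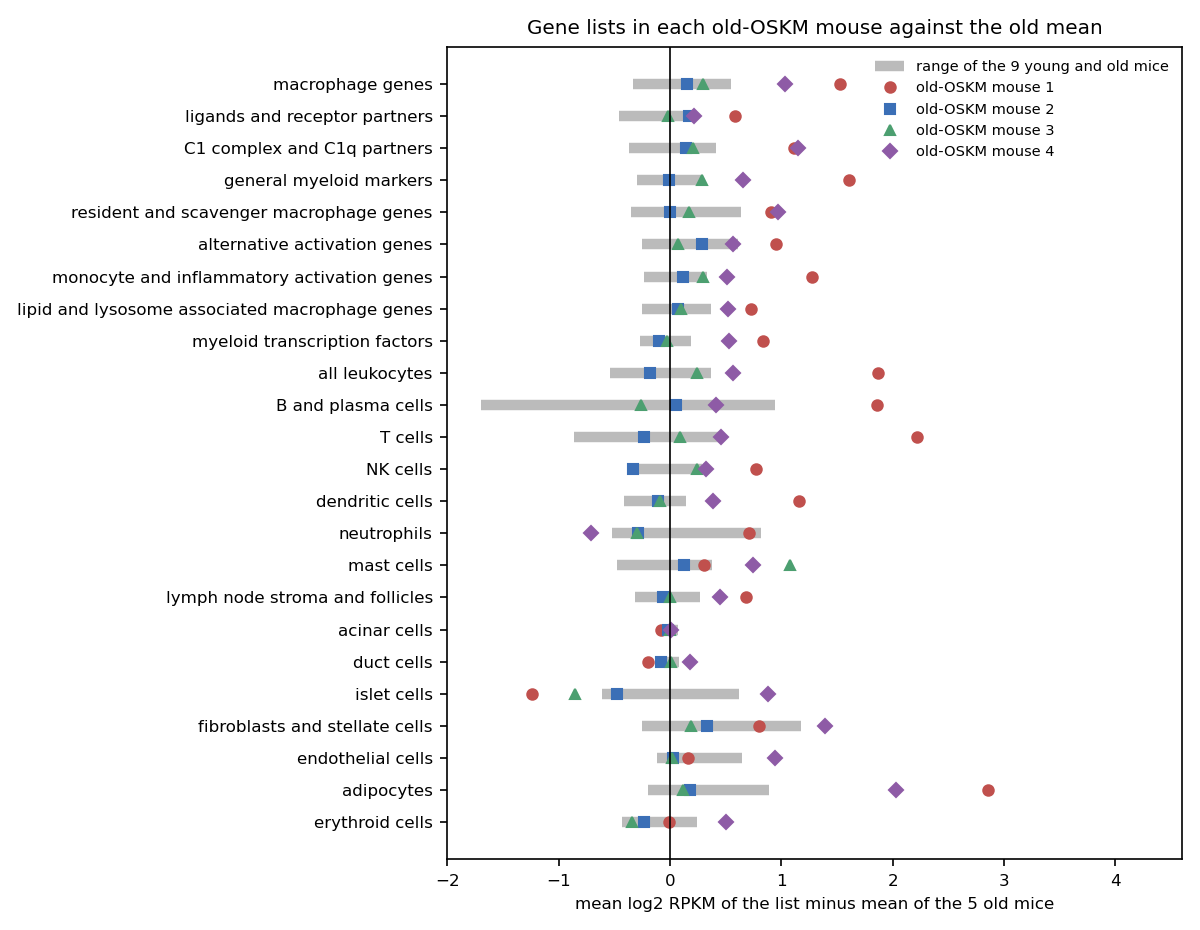
Mean log2 RPKM of each gene list minus the mean of the 5 old mice (horizontal axis), for the macrophage genes, the 8 macrophage biology lists and the 15 cell type lists (vertical axis). Grey bars span the 9 young and old mice and symbols are the 4 old-OSKM mice. Mouse 1 is far out for leukocytes (1.87), T cells (2.22) and adipocytes (2.86), and mouse 4 for fibroblasts (1.39), endothelial cells (0.94) and adipocytes (2.03).

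The search for genes most like the 10 macrophage genes over the 13 mice left out only those 10. It used the mean z-score of the 10 and 8402 genes with a mean log2 RPKM of at least 0. Genes of the other lists were kept in the search. Cd74, the invariant chain of MHC class II, was first with r = 0.975, with means of 3.31 in young, 3.30 in old and 4.24 in old-OSKM mice. H2-Eb1 (r = 0.968) and H2-Ab1 (r = 0.963) encode class II chains. Cotl1 (r = 0.968) encodes an actin-binding protein, Ctss (r = 0.959) the lysosomal protease cathepsin S and Fcgr3 (r = 0.957) an Fc receptor. Ctss and Fcgr3 also belong to the list of general myeloid markers read above. Ly6a (r = 0.963), C1rb (r = 0.961), Unc93b1 (r = 0.958) and H2-T23 (r = 0.957) completed the first 10. In the 9 young and old mice alone the r of these genes was 0.80 to 0.98, the highest being Fcgr3.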

How the data were processed

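RNA sequencing of 13 mouse pancreas libraries was deposited as 1 table, with log2 RPKM for each Entrez gene. The authors made it from paired-end reads of ribosomal RNA-depleted libraries (a kit that does not keep strand) by alignment with STAR 2.3.0e to mm10, estimation with Casper without reads mapping to 5 or more places, and quantile normalization. Whether the authors' correction for read totals is in these values cannot be told. The study gives a single read depth for all samples, and the total of each mouse is unknown. Values were used as deposited. A limma model (version 3.58.1, R 4.3.3) held all 23366 genes and 3 groups, without covariates. A gene was called at a fold over 1.5 and raw p under 0.01, as in the study, and p-values were Benjamini-Hochberg adjusted over all genes. Data were simulated for old minus young (23366 genes), with independent normal noise and the same spread per gene in all groups. There, 88 of 100 genes changed by a log2 of 1 and 97 of 100 changed by a log2 of 2 were recovered. Of the unchanged genes, 0.389% were called. The real macrophage genes moved together and spread more in old-OSKM mice, so these rates do not carry over to the old-OSKM comparisons. Named genes were the 10 macrophage genes, the genes called and the 2 with the smallest raw p of each macrophage list, those called in each cell type list, Ptprc, and the 10 most alike. Lists of macrophage biology (94 genes) and of cell types (94 genes, Ly6g not used) were written from general knowledge. The 10 genes and all lists were chosen with earlier results of these data known. Each animal is 1 sample. Gene positions are from RefSeq, strands and overlapping genes from GENCODE M21, and promoters from RefSeq (GRCm38.p6). Alternatives were other scalings, filters, pseudocounts, covariates and left-out mice.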

Additional observations from a re-analysis of the deposited data

Results flagged for a closer look

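Dixon's test was read over the 30 sets formed by 10 genes and 3 groups, of which 1 in 20 would be marked by chance, and it marked 2. Mrc1 in young mouse 4 was 1.26 log2 RPKM, against 0.51 in the nearest other young mouse, a gap of 0.919 of the range. C1qc in the same mouse was 1.68, against 0.80 in the nearest, a gap of 0.894 of the range. Both results concern 1 animal, young mouse 4, whose fibroblast list stood 1.18 and adipocyte list 0.89 above the old mean, and the part of those cells was not tested. Without young mouse 4, the differences between old and young mice were -0.07 for Mrc1 and 0.12 for C1qc. No single value of the old or old-OSKM groups was marked.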

How the results depend on the processing

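No paired analysis was possible because the labels give no replicate numbers that groups share. The cause of the changes below was not tested. With genes of a mean log2 RPKM of at least 0 only, fewer genes were tested, and the calls over all genes were 44 in old minus young (207 as reported), 35 in old-OSKM minus old (176) and 19 in old-OSKM minus young (146), in that order, with 3 of 8 macrophage genes called in old-OSKM minus old. A pseudocount of 0.1 gave 116, 77 and 76 calls, and a pseudocount of 1 gave 16, 2 and 8. In old-OSKM minus old, with 1 of 10 macrophage genes called as reported, 0 were called with a pseudocount of 1, with only the 2 compared groups, within sample numbers 609 to 621, with the mean z-score of all genes as covariate and without both old-OSKM mice 1 and 4. The z-score covariate gave 90 calls over all genes, 51 of them higher, against 136 of 176, and leaving out both mice gave 80, 31 of them higher. Without both, the median difference of the 10 was 0.25 against old and 0.13 against young mice, where 0.74 and 0.69 are reported. The following differences changed sign. In old minus young they were C1qa at 0.07 with the run of sample numbers as covariate, and Cd68 at -0.14, C1qa at 0.21, C1qb at 0.09 and C1qc at 0.10 within numbers 609 to 621. In old-OSKM minus young they were Cd14 at -0.16 and Mrc1 at -0.01 with the z-score covariate, and Csf1r at -0.09, Cd14 at -0.39, Lyz2 at -0.05 and Mrc1 at -0.18 without both mice. In old-OSKM minus old, without both mice, they were Cd14 at -0.02 and Ptprc at -0.25. Leaving out each mouse in turn gave 94 (without old-OSKM mouse 1) to 338 (without old-OSKM mouse 2) calls over all genes in old-OSKM minus old, 121 to 253 in old-OSKM minus young and 175 to 280 in old minus young. Of the 10, 0 to 6 were called in old-OSKM minus old, 6 without old-OSKM mouse 2, and 0 to 3 in old-OSKM minus young. With each mouse left out in turn, old minus young ran from -0.15 to 0.00 in Adgre1, -0.10 to 0.22 in Cd68, -0.19 to 0.13 in C1qa, -0.26 to 0.10 in C1qb and -0.21 to 0.12 in C1qc, and old-OSKM minus young from -0.13 to 0.32 in Cd14. Repeated quantile normalization, centring on the median and a trended robust variance moved none of these counts by over 1.5 times. The deposited values were already quantile normalized, so repeating that step or centring could hardly change them and is no test of stability.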

Other observations

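Mast cell genes showed another order of the old-OSKM mice than the macrophage genes did. Mcpt4, a mast cell protease, was -1.87, -1.93, -1.53 and -2.0 log2 RPKM in old-OSKM mice 1 to 4, all higher than the 4 young mice, which were between -3.12 and -3.06. Summed RPKM of the 4 mast cell genes was 0.949, 1.02, 1.65 and 1.29 in these mice, against 0.73 to 1.10 in old and 0.552 to 0.965 in young mice, and was highest in mouse 3, where the macrophage genes were mostly within the old range. Neutrophil genes also followed another order, with sums of 3.15, 1.25, 1.21 and 0.829 in old-OSKM mice and 1.05 to 3.29 in old mice, so mouse 4 was high for macrophage genes and lowest of the group for neutrophil genes. The low young values of Mcpt4 and Cd3g, like those of Tnf in old mice, were nearly constant between animals.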
